A study of Mus musculus with 18 samples.

Results

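The 8 genes described here belong to the Schwann cell program and were measured in RNA from healing mouse skin. They are the myelin genes Mbp, Pmp22, Prx and Mal, the lineage genes Sox10 and S100b, and Cdh19 and Ncam1, which mark precursor and repair or non-myelinating Schwann cells. They were taken by symbol, 1 transcript row per gene, and make up 8 of the 26149 genes in the skin table. The study compared WT mice with mice carrying the PPARg T166A allele. PPARg is a nuclear receptor of lipid metabolism, and the allele replaces a threonine with alanine. The wound libraries came from dorsal skin 6 days after injury, digested and bound to anti-F4/80 microbeads (WT, n = 6; PPARg T166A, n = 6). A second table held bone marrow-derived macrophages (BMDM) of C57BL/6J or PPARg T166A mice, grown for 7 days with 50 ng/ml M-CSF (n = 3 each, in batches B1 and B2). F4/80 is a macrophage surface protein, so bead binding enriches macrophages and does not give a pure cell type. The labels do not give the promoter or cell restriction of the allele, the age of the mice or whether the replicates were separate animals. The p-values therefore measure the spread between these libraries, which may be technical in part.

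Schwann cells are the glia of peripheral nerves, including the fine nerves of skin. Myelinating Schwann cells wrap single axons in compact myelin, whose proteins include the products of Mbp and Pmp22, and the transcription factor SOX10 is needed throughout the lineage. After nerve injury Schwann cells lower their myelin genes, take on a repair state, and make myelin again as axons regrow.

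In the wound fraction 5 of the 8 genes rose in T166A and 1 fell (edgeR's quasi-likelihood test, Benjamini-Hochberg adjustment over all 15473 genes tested). The percentage of all tested genes called in either direction was 25.9, with 12.7 higher and 13.2 lower in T166A. Cdh19 rose most, 3.24-fold, followed by Sox10 at 2.26-fold and Mal at 1.94-fold, and Mbp and Prx rose 1.35-fold and 1.34-fold. Pmp22 fell to 0.749 of its WT level, and S100b and Ncam1 did not pass the threshold of 0.05. All 8 genes passed the filter on low counts in skin. Total counts per library ranged from 29357354 to 38774475 in skin and from 40072513 to 44152639 in BMDM. Levels below are counts per 1000000 (CPM) after TMM normalization, and fold changes are T166A over WT with the standard error (SE) on the log2 scale. In bulk RNA, a change in the number of cells of a type and a change in RNA per cell cannot be told apart.

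**Figure D1:**
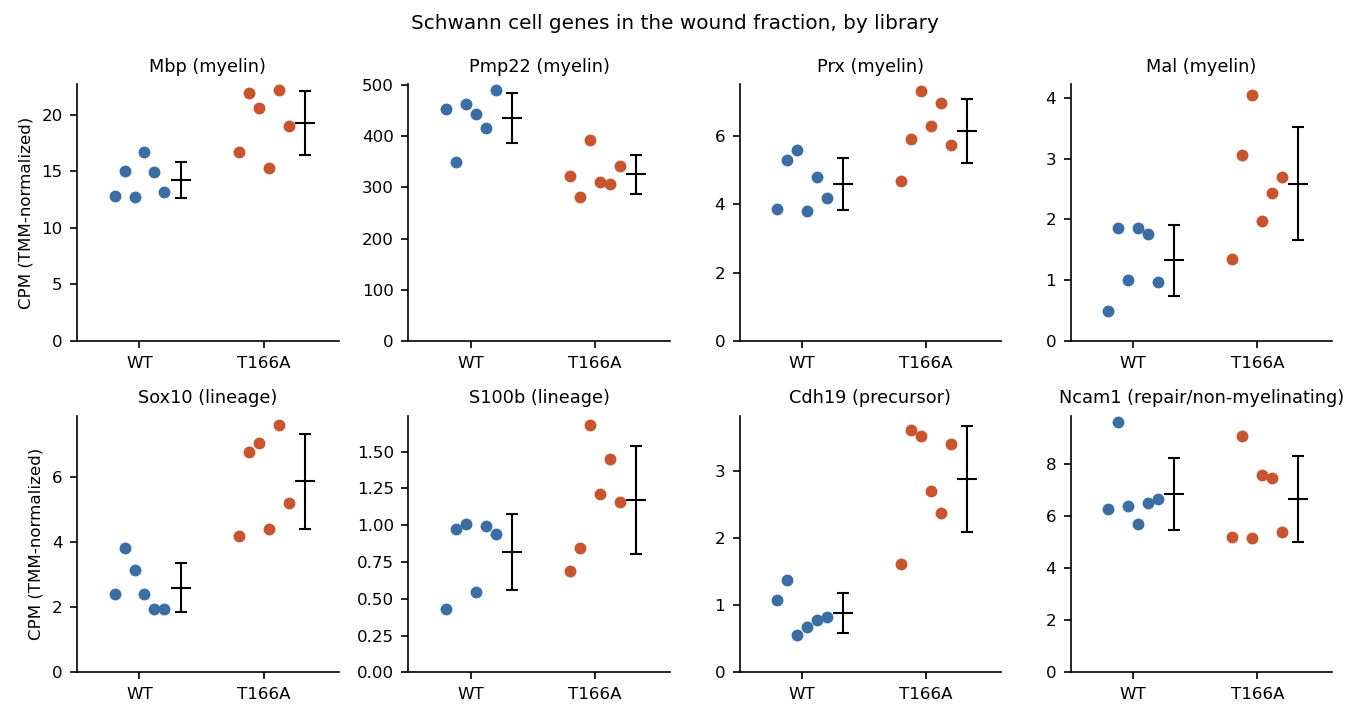
CPM (vertical axis, from 0, a scale for each gene) of the 8 Schwann cell genes in each of the 6 WT (blue) and 6 T166A (orange) wound libraries, with mean and SD in black. For Sox10 and Cdh19 every T166A point lies above every WT point, Pmp22 lies lower in T166A, and the Ncam1 points overlap.

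Divided by transcript length, the WT level was highest for Pmp22, at 242 ± 27.2 CPM per kb (SD, n = 6), and Mbp followed at 5.71 ± 0.628 CPM per kb. Ncam1 (1.13 ± 0.23 CPM per kb), Sox10 (0.963 ± 0.274 CPM per kb) and Prx (0.846 ± 0.139 CPM per kb) came next, with overlapping spreads. S100b (0.551 ± 0.174 CPM per kb) and Mal (0.477 ± 0.208 CPM per kb) also overlapped, and Cdh19 was lowest at 0.226 ± 0.0767 CPM per kb. Pmp22 was thus far more abundant than the other 7 genes in this fraction. Pmp22 was also abundant in cultured macrophages (553 ± 62.4 CPM in WT BMDM, SD, n = 3, against 435 ± 49 CPM in WT skin, SD, n = 6), in a table that was normalized separately.

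Promoter windows of the myelin genes Mal, Prx and Pmp22 were taken from the RefSeq table of the GRCm38.p6 build, and no Mbp window was examined. They are shown because Mal and Prx rose and Pmp22 fell. Each run is the 250 bases before an annotated start, 5′ to 3′ on the gene's strand, with CG dinucleotides in capitals.
Mal promoter window: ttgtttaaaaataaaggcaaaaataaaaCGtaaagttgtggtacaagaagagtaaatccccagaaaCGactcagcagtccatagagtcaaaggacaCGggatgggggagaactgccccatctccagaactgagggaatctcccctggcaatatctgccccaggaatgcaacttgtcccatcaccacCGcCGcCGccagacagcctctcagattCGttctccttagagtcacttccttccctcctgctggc
Prx promoter window: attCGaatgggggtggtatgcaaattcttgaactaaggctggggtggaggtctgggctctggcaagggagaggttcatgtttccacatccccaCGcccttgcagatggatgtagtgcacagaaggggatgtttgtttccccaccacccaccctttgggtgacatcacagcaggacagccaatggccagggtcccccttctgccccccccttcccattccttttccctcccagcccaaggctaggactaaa
Pmp22 upstream promoter window: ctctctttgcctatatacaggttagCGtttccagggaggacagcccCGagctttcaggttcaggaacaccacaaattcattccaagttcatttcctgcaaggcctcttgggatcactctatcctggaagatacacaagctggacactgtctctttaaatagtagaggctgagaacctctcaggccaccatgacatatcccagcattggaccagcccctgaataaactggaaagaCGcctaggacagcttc
Pmp22 downstream promoter window: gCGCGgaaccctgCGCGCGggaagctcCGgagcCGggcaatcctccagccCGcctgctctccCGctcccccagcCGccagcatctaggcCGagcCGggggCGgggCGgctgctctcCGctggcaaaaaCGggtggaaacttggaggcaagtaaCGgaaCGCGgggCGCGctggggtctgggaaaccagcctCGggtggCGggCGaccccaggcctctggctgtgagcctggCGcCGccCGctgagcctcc
The Mal window is at chr2:127656696-127656945 on the minus strand and holds 7 CG dinucleotides. The Prx window, chr7:27499074-27499323 on the plus strand, holds 2. Pmp22 has several starts, and the upstream window shown, chr11:63128732-63128981 on the plus strand, holds 3 CG dinucleotides, while the window of a downstream start, chr11:63132553-63132802, holds 27. The other Pmp22 windows, chr11:63131207-63131456 and chr11:63132319-63132568, are not shown and hold 14 each. The median over 32851 promoter windows of this length was 6. No match to ACAAAG or ACAATG (SOX motif letters), GCGNGGGCG (EGR) or TATAAA was found on either strand in the 7 windows of Mal, Pmp22, Prx and S100b. Of all windows, 25.2%, 4.7% and 12.4% held the SOX, EGR and TATA letters. The CG-poor and the CG-rich Pmp22 starts could not be followed separately, because 6 of the 7 Pmp22 transcript rows differed by at most 10 counts in a library (0.075%). In GENCODE these rows start at chr11:63128982, 63131512 or 63132569, none of them directly after the CG-rich window.

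Mbp (chr18:82475091-82585637, mm10) encodes myelin basic protein, which holds the cytoplasmic faces of the myelin membrane together. WT libraries lay at 12.7 to 16.7 CPM with a median of 14.1, and T166A libraries at 15.3 to 22.2 CPM with a median of 19.8. In T166A, 5 libraries were above all WT libraries, and the remaining one fell inside the WT range. The mean went from 14.2 ± 1.57 to 19.3 ± 2.81 CPM (SD, n = 6), a log2 fold change of 0.44 (SE 0.10; adjusted p = 0.00163 in edgeR).

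The Mbp gene also has an upstream start, which gives the golli transcripts that are known from immune cells as well as from myelinating cells. The skin table held 8 Mbp rows. Of these, 6 start at the downstream, classic first exon, and the row NM_001025256 of this kind rose from 13.1 ± 1.66 to 18.3 ± 2.99 CPM (SD, n = 6; log2 fold change 0.48, SE 0.11, edgeR adjusted p = 0.00149). The upstream row NM_001025245, which ends before the last classic exons but is the longest Mbp transcript in GENCODE (4797 bases), was at 15.3 ± 1.22 CPM in WT against 15.8 ± 1.66 CPM in T166A (log2 fold change 0.05, SE 0.08, edgeR adjusted p = 0.719). The row NM_010777, used above for Mbp, joins an upstream start to the classic exons, and the classic row held 88.5 to 97.4% of its counts. Rows that share exons share reads, so they are not separate measurements.

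The ratio of the classic row to this early-ending upstream row was 0.867 ± 0.162 in WT and 1.16 ± 0.133 in T166A wound libraries (SD, n = 6). The ranges were 0.665 to 1.07 and 0.99 to 1.33 and overlapped, and a two-sided exact permutation test over 924 splits gave p = 0.0108. This ratio was chosen after the rows had been seen. In BMDM the early-ending upstream row stood at 88.6 ± 15.6 CPM in WT and the classic row at 6.48 ± 3.11 CPM (SD, n = 3), a ratio of 0.0708 ± 0.0209. In T166A BMDM the ratio was 0.0858 ± 0.0157 (SD, n = 3; exact permutation p = 0.4, where 0.1 is the smallest that 3 against 3 allow). Divided by GENCODE transcript length, the classic row was at 6.4 ± 0.811 CPM per kb and the early-ending upstream row at 3.18 ± 0.255 CPM per kb in WT wound libraries (SD, n = 6). In WT BMDM the order was the opposite, at 3.17 ± 1.52 and 18.5 ± 3.25 CPM per kb (SD, n = 3).

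**Figure D2:**
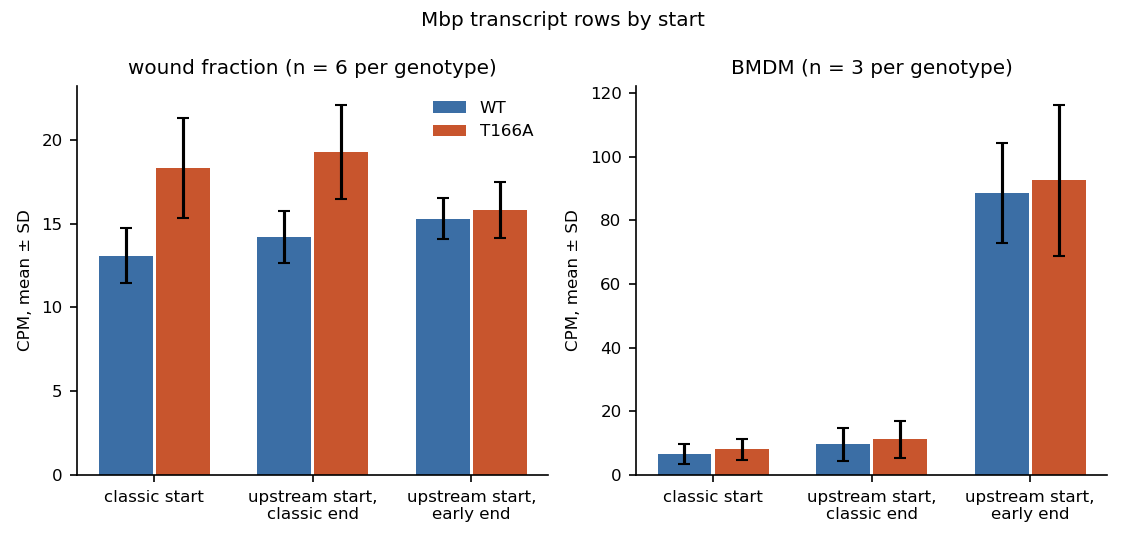
Mean CPM (bars from 0) with SD (error bars) of 3 Mbp transcript rows in the wound fraction (n = 6 per genotype) and in BMDM (n = 3 per genotype), WT in blue and T166A in orange. In the wound fraction the classic row was 13.1 CPM in WT and 18.3 CPM in T166A while the early-ending upstream row was 15.3 and 15.8 CPM, and in BMDM the early-ending upstream row was highest.

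Pmp22 (chr11:63128982-63159547) encodes a membrane protein of compact myelin that is also made outside nerve. Its WT libraries lay at 349 to 490.4 CPM with a median of 448, and its T166A libraries at 282 to 393 CPM with a median of 317. In T166A, 5 libraries were below all WT libraries. The mean went from 435 ± 49 to 326 ± 38.1 CPM (SD, n = 6), a log2 fold change of -0.42 (SE 0.08; adjusted p = 0.00107 in edgeR). Pmp22 was the myelin gene of the 8 that fell, opposite in direction to Mbp, Prx and Mal.

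Prx (chr7:27499305-27520041) encodes periaxin, which links the outer Schwann cell membrane to the basal lamina. It was at 3.82 to 5.59 CPM in WT (median 4.5) and at 4.69 to 7.34 CPM in T166A (median 6.11). In T166A, 5 libraries were above the WT range. The log2 fold change was 0.42 (SE 0.14; adjusted p = 0.0236 in edgeR). The edgeR adjusted p for Prx was 0.0562, 0.0603 and 0.0508 when WT replicate 1, 4 or 6 was left out, and 0.0586 and 0.0532 for T166A replicate 3 or 5. The log2 fold change was then 0.37 to 0.40, so the size changed little while the call was lost. Prx shares 300 exon bases with the antisense gene Gm15541, and whether the counting used strand is not given in the sources.

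Mal (chr2:127633226-127656695) encodes a proteolipid of myelin and other lipid-rich membranes. It was at 0.492 to 1.86 CPM in WT (median 1.39) and at 1.35 to 4.04 CPM in T166A (median 2.56), with 1 T166A library inside the WT range. The log2 fold change was 0.96 (SE 0.30; adjusted p = 0.0214 in edgeR). Without WT replicate 6, adjusted p was 0.0528 for Mal in edgeR and Prx was also lost, which left 3 of the 8 genes called higher.

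Sox10 (chr15:79154913-79164490), the transcription factor of the Schwann cell and melanocyte lineages, was at 1.94 to 3.83 CPM in WT (median 2.4). In T166A it was at 4.19 to 7.6 CPM (median 6). The groups did not overlap, and the log2 fold change was 1.17 (SE 0.19; adjusted p = 7.3e-05 in edgeR). Sox10 and Cdh19 were the 2 of the 8 genes whose T166A libraries all exceeded the WT maximum, as in 5.43% of all tested genes. None of the 8 had all T166A libraries below the WT minimum, as in 6.63% of tested genes.

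S100b (chr10:76253836-76261319), a calcium-binding protein of Schwann cells, was at 0.43 to 1.01 CPM in WT (median 0.957) and 0.689 to 1.68 CPM in T166A (median 1.19). In T166A, 4 libraries were above the WT range, but these values rested on 14 to 57 counts a library. The log2 fold change of 0.52 (SE 0.30, 95% interval -0.10 to 1.13) did not pass the test (edgeR adjusted p = 0.216).

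Cdh19 (chr1:110888002-110977601), a cadherin of Schwann cell precursors that adult Schwann cells also keep, was at 0.559 to 1.38 CPM in WT (median 0.804). In T166A it was at 1.62 to 3.62 CPM (median 3.05). The groups did not overlap. The log2 fold change was 1.70 (SE 0.24; adjusted p = 1.69e-05 in edgeR), from 16 to 128 counts a library.

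Ncam1 (chr9:49502129-49799393), an adhesion molecule of non-myelinating and repair Schwann cells and of other tissues, was at 5.71 to 9.62 CPM in WT (median 6.45) and 5.16 to 9.1 CPM in T166A (median 6.43). The ranges nearly coincided. The log2 fold change was -0.04 (SE 0.15, 95% interval -0.36 to 0.28, edgeR adjusted p = 0.872). It shares 417 exon bases with the antisense gene Gm11149.

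The myelin genes and the precursor or repair genes did not form opposing groups. Within the myelin group 3 rose and Pmp22 fell, and of the other pair Cdh19 rose while Ncam1 did not pass. The mean log2 CPM of Mbp, Pmp22, Prx and Mal exceeded that of Ncam1 and Cdh19 by 2.47 ± 0.39 in WT (1.98 to 2.90) and by 2.03 ± 0.26 in T166A (1.67 to 2.36; SD, n = 6), and these ranges overlapped. The difference of -0.44 is given as a description with no test. Pmp22 is part of the myelin mean and fell while Mbp, Prx and Mal rose, so part of this difference comes from Pmp22. The size of that part was not tested. The direction depended on which genes were compared. Mbp CPM divided by Cdh19 CPM was 10.8 to 24.8 in WT and 5.57 to 10.3 in T166A, which did not overlap. Cdh19 CPM alone did not overlap between genotypes either, so this ratio adds little to the Cdh19 result. Mbp CPM divided by Ncam1 CPM was 1.56 to 2.92 in WT and 2.01 to 3.99 in T166A, which overlapped and lay higher in T166A.

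**Figure D3:**
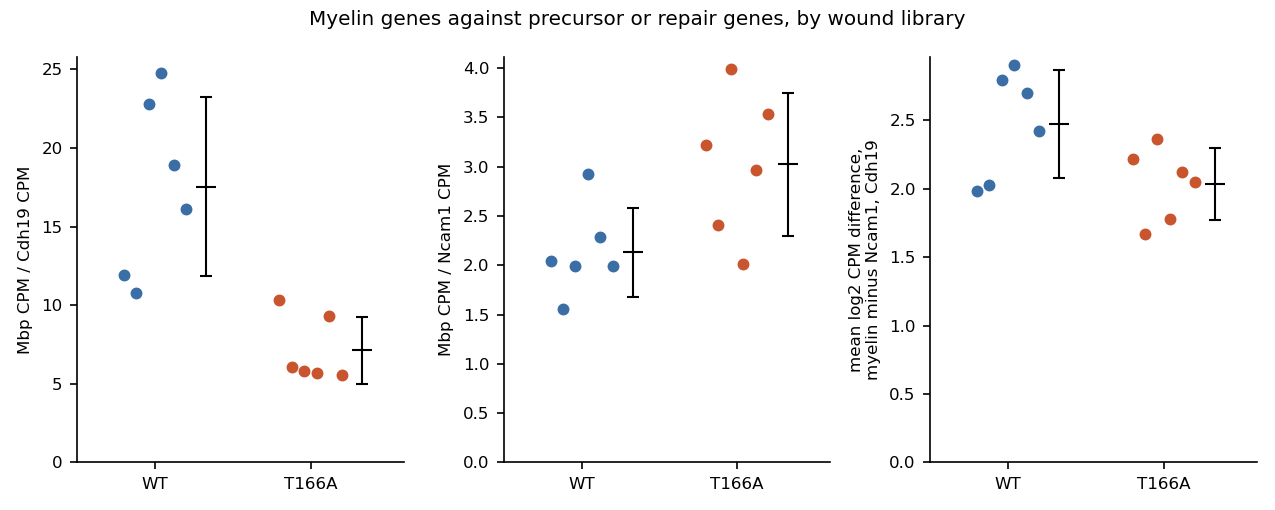
Mbp CPM over Cdh19 CPM, Mbp CPM over Ncam1 CPM, and the difference in mean log2 CPM between the 4 myelin genes and Ncam1 with Cdh19 (vertical axes, from 0), per wound library, with mean and SD in black. The first ratio is lower in every T166A library than in any WT library, and the other measures overlap between genotypes.

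Of 20 other myelin genes, 16 were tested, of which 8 rose and 1 fell, with a median log2 fold change of 0.58 against 0.01 over all genes tested. The shares over all genes tested were 12.7% higher and 13.2% lower. Among those that rose were Cadm4, an adhesion molecule between glia and axon, Drp2, a partner of periaxin, Fa2h, Gjb1, Cldn19 and Dhh, with log2 fold changes from 0.56 to 1.34. The highest, Gjb1 (SE 0.45, edgeR adjusted p = 0.0287), was at 0.23 ± 0.122 CPM in WT (SD, n = 6), with at most 36 counts a library. Cldn19 was at 0.516 ± 0.203 CPM in WT (SD, n = 6), with at most 55 counts (edgeR adjusted p = 0.046). Cadm4 was at 4.25 to 7.04 CPM in WT and, nearly without overlap, at 6.94 to 11.3 CPM in T166A (log2 fold change 0.60, SE 0.14; adjusted p = 0.00231 in edgeR). Drp2 was at 3.22 to 6.32 CPM in WT against 4.69 to 7.66 CPM in T166A (log2 fold change 0.56, SE 0.16; adjusted p = 0.00927 in edgeR). Mag, the myelin-associated glycoprotein, had a log2 fold change of 0.05 (edgeR adjusted p = 0.894), and Cnp one of -0.04 (edgeR adjusted p = 0.775). Ndrg1, at 859 ± 16.2 CPM in WT against 767 ± 29.5 CPM in T166A (SD, n = 6), fell by 0.16 on the log2 scale. Pmp22 and Ndrg1, the myelin genes that fell, were the most abundant of those tested.

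Of 18 repair cell genes, 16 were tested, of which 3 rose and 4 fell, with a median log2 fold change of 0.18. For comparison, 12.7% of all tested genes were called higher and 13.2% lower. Ngfr, the low-affinity neurotrophin receptor of repair and non-myelinating Schwann cells, went from 2.9 ± 0.511 to 5.11 ± 0.89 CPM (SD, n = 6; log2 fold change 0.82, edgeR adjusted p = 0.000316). Gap43, a growth-associated protein, rose by 0.86 (edgeR adjusted p = 0.0224), and Gfap, an intermediate filament of non-myelinating Schwann cells, rose by 2.02 (edgeR adjusted p = 0.00136) from 0 to 0.593 CPM in WT to 0.742 to 1.58 CPM in T166A. The genes that fell, Id2, Atf3, Clcf1 and Jun, encode broadly expressed regulators or a cytokine. Jun, the transcription factor central to the repair state, was at 386 ± 20.7 CPM in WT against 346 ± 28.6 CPM in T166A (SD, n = 6; log2 fold change -0.16, edgeR adjusted p = 0.0408), and in 11 of 24 alternatives it was not called.

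Of 16 lineage and precursor genes, 15 were tested, of which 7 rose and 2 fell, with a median log2 fold change of 0.38. Over all genes tested 12.7% rose and 13.2% fell. Gfra3, the artemin receptor, was at 0.244 to 0.628 CPM in WT against 1.17 to 2.38 CPM in T166A (log2 fold change 1.91, SE 0.30, edgeR adjusted p = 4.51e-05). Kcna1, a potassium channel, rose by 1.58 and Col28a1, a collagen of peripheral glia, by 1.07 (edgeR adjusted p = 7.84e-05 and 7.07e-06). Scn7a, a sodium channel of non-myelinating Schwann cells, rose by 0.54 (edgeR adjusted p = 0.00241), and Foxd3, Gpm6b and Ednrb also rose. Foxd3 had at most 67 counts a library (edgeR adjusted p = 0.0466). Ednrb was at 443 ± 34.9 CPM in WT, against 2.61 ± 0.743 CPM for Sox10 (SD, n = 6). Ptprz1, a receptor phosphatase, fell by 1.43 on the log2 scale (edgeR adjusted p = 0.000256), and Tfap2b fell by 0.82. Erbb3, the neuregulin receptor subunit of Schwann cells, was at 9.59 ± 3.05 CPM in WT against 9.08 ± 1.39 CPM in T166A (SD, n = 6; edgeR adjusted p = 0.788).

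Of 18 genes that control myelination, 17 were tested, of which 4 rose and 4 fell, with a median log2 fold change of 0.06. Among all tested genes 12.7% rose and 13.2% fell. Egr2, the transcription factor that switches on myelin genes in Schwann cells and that macrophages also express, was at 41.8 to 49.9 CPM in WT against 27 to 35.2 CPM in T166A. The groups did not overlap, and the log2 fold change was -0.58 (SE 0.07; adjusted p = 3.02e-06 in edgeR). Its corepressor Nab2 fell by 0.68 (edgeR adjusted p = 1.8e-07). Lamc1, a laminin chain of the Schwann cell basal lamina and other basement membranes, rose by 0.47, while Lama2, the laminin chain typical of that lamina, fell by 0.45. Zeb2 had a log2 fold change of -0.07 (edgeR adjusted p = 0.314).

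**Figure D4:**
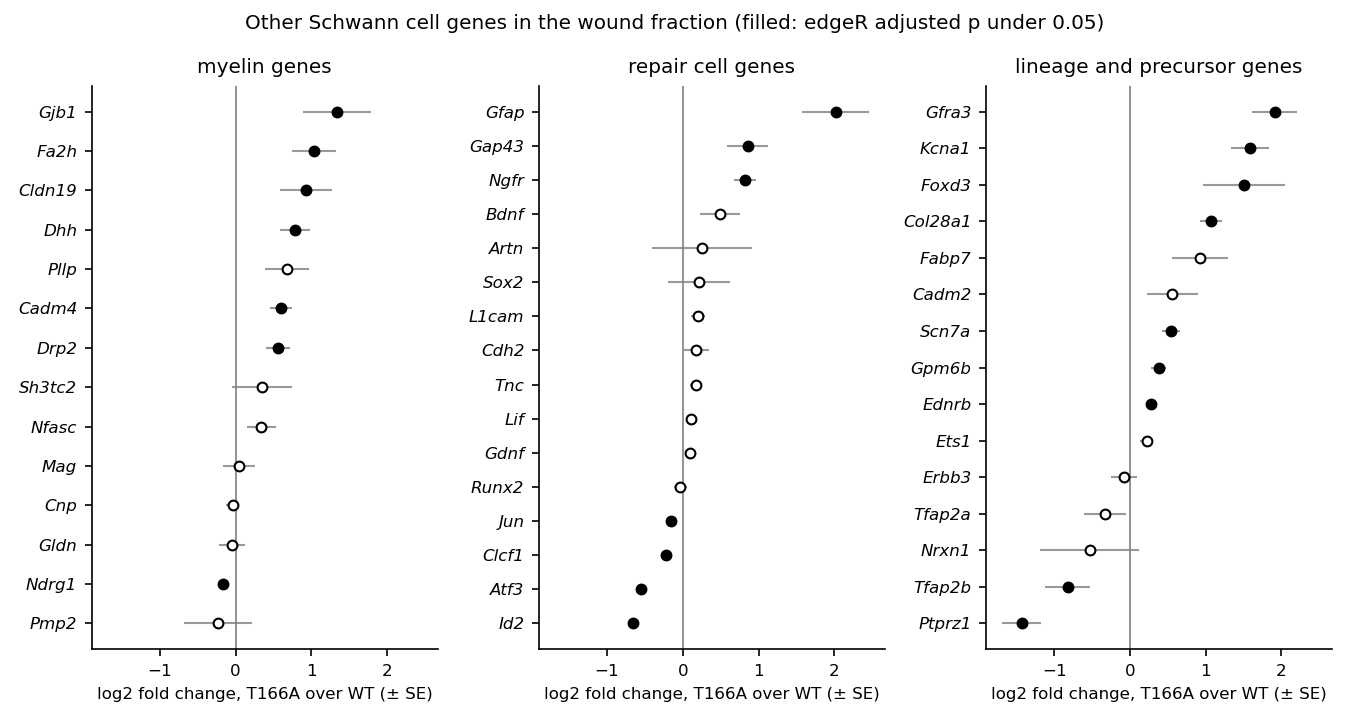
Log2 fold change (horizontal axis, T166A over WT, ± SE) of tested myelin, repair cell, and lineage and precursor genes in the wound fraction (without 2 of the 16 myelin genes tested), filled where the edgeR adjusted p is under 0.05. Gfap, Gfra3 and Kcna1 lie farthest to the right, Ptprz1 farthest to the left, and Mag, Cnp and Erbb3 lie near 0.

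Markers of other cells moved in the same libraries, and their part in the Schwann cell results was not tested. The marker counts below stand beside 12.7% of all tested genes called higher and 13.2% called lower. Fits with a marker score as a covariate are given as values only. Of 12 melanocyte markers 6 stayed under 1 CPM in every library, Tyr and Mlana among them. Their summed level was 50 to 64.8 CPM in WT and 58.1 to 71.9 CPM in T166A, and 2 of the 6 tested rose (Mitf and Tyrp1) and 1 fell (Trpm1). Dct and Pmel did not pass, at log2 fold changes of 1.01 and 0.14 (edgeR adjusted p = 0.122 and 0.546). The melanocyte sum was mostly Mitf, at 38 ± 4.54 CPM in WT skin (SD, n = 6) and 59.1 ± 2.43 CPM in WT BMDM (SD, n = 3). With a score of the 12 markers as a covariate Sox10 had a log2 fold change of 1.23 (edgeR adjusted p = 8.39e-06). This score holds Mitf and the 6 markers under 1 CPM, so it is a weak measure of melanocytes. Of 12 neuron markers 9 stayed under 1 CPM, and the sum was 8.24 to 15 CPM in WT and 16.9 to 20.8 CPM in T166A, with Uchl1 the 1 of 5 tested that rose. Adipocyte markers rose in 9 of 11 tested (summed level 866 to 1127 CPM in WT, 876 to 1499 CPM in T166A). That sum was mostly Lpl and Fabp4 (480.1 ± 83.4 and 514 ± 73.4 CPM in WT, SD, n = 6), the 2 tested markers that were not called. Endothelial markers rose in 7 of 10 (1394 to 1920 and 1793 to 2619 CPM), and pericyte and smooth muscle markers in 7 of 10 (531 to 769 and 872 to 1176 CPM). Macrophage markers fell in 8 of 10 (11323 to 14291 and 9757 to 10963 CPM), and fibroblast markers in 1 of 10 (7253 to 11144 and 6064 to 11258 CPM). Skeletal muscle markers fell in 6 of 11 and rose in none, with sums that did not overlap (94.9 to 118 CPM in WT, 65.4 to 80.3 CPM in T166A), and the muscle actin gene Acta1 had a log2 fold change of -1.33 (adjusted p = 7.37e-08 in edgeR). Keratinocyte markers fell in 1 of 12 (205 to 442 and 205 to 378 CPM), and of T and NK cell markers neither of the 2 tested was called (51.5 to 67.5 and 30.9 to 62.2 CPM).

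With an adipocyte score as a covariate, 0 of the 8 genes were called higher, and Pmp22 was still called lower (log2 fold change -0.85, edgeR adjusted p = 0.00447). Cdh19 then had a log2 fold change of 1.76 (edgeR adjusted p = 0.126) and Sox10 one of 0.81 (edgeR adjusted p = 0.369). Adipoq, the adipocyte hormone adiponectin and part of that score, was at 0.377 to 1.51 CPM in WT against 6.68 to 13.6 CPM in T166A. For 6 of the 11 tested markers every T166A library lay above every WT library. To that extent score and genotype cannot be told apart in this fit, but the score itself was not compared between genotypes. With a fibroblast score as a covariate Mbp, Sox10 and Cdh19 were still called higher, and Prx and Mal were not (edgeR adjusted p = 0.24 and 0.201).

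Among the 12 wound libraries, with genotype means removed, the 8 genes were loosely related. Of 28 pairs 22 had a positive Pearson r, with a median of 0.28, and 2 passed after Benjamini-Hochberg adjustment over the 28 pairs. Prx and S100b varied together (r = 0.86, permutation p = 0.00063, adjusted p = 0.0176; rho = 0.90, permutation p = 0.00023, adjusted p = 0.00644), and r was 0.83 without the 2 libraries farthest from the median of Prx. Pmp22 and Ncam1 ran opposite (r = -0.81, permutation p = 0.00238, adjusted p = 0.0333; rho = -0.71, permutation p = 0.0146, adjusted p = 0.136), with r at -0.68 without the 2 farthest. Sox10 and Cdh19 had r = 0.42 within genotypes (permutation p = 0.196, adjusted p = 0.506; rho = 0.35, permutation p = 0.289, adjusted p = 0.735).

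The genes whose library pattern was most like each of the 8 were sought among 12756 genes with at least 1 CPM on average, over the same 12 libraries with genotype means removed. These are the highest of many correlations and carry no p. S100b was most like Gfra3 (r = 0.93), itself a Schwann cell gene, and Mbp was like Ndrg1 in second place (r = 0.88). Pmp22 was most like the chemokine gene Ccl7 (r = 0.97), Mal like the growth factor gene Fgf1 (r = 0.92), and Cdh19 like Bmp5 (r = 0.91). Prx was most like Pkp4 (r = 0.97), Sox10 like Arhgef16 (r = 0.95), Mbp like Herpud1 (r = 0.91) and Ncam1 like Col17a1 (r = 0.92). Gfra3 and Ndrg1 are on the Schwann cell lists, and the others named here are not.

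In BMDM, 3 of the 8 genes passed the filter on low counts, and none was called, where 0.0685% of 13139 genes were called (9, with 1687 at an unadjusted p under 0.05 in edgeR). Mbp, there by its early-ending upstream row, was at 88.6 ± 15.6 CPM in WT against 92.6 ± 23.8 CPM in T166A (SD, n = 3; edgeR adjusted p = 0.943). Pmp22 went from 553 ± 62.4 to 472 ± 44.2 CPM (SD, n = 3), a log2 fold change of -0.23 (SE 0.12, 95% interval -0.49 to 0.04, edgeR adjusted p = 0.461). Prx was at 1.36 ± 0.172 and 1.32 ± 0.238 CPM (SD, n = 3; edgeR adjusted p = 0.977). In the fit over all 18 libraries the genotype effect differed between skin and BMDM in 14.3% of 16586 genes, and in none of these 3. The skin effect minus the BMDM effect was -0.15 for Pmp22 (SE 0.14; adjusted p = 0.512 in edgeR), 0.51 for Prx (SE 0.28; adjusted p = 0.236 in edgeR) and 0.31 for Mbp by NM_010777 in both tables (SE 0.28; adjusted p = 0.497 in edgeR).

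Mal had 0 counts in all 6 BMDM libraries. Sox10, S100b, Cdh19 and Ncam1 were at or near 0 in 5 BMDM libraries, but T166A replicate 3 held 34, 55, 6 and 253 counts of them, against 3, 0, 0 and 40 in the other 5 together. In this library Drp2 had 30 counts and Cadm4 82, against 0 and 22 in the other 5 together. Gap43 had 413 counts against 0, and the fibroblast gene Col1a1 was at 244 CPM against 2.12 to 14.7 CPM. Of the neuron markers, all 12 were above the other 5 libraries, with a sum of 209 CPM against 0.811 to 5.21 CPM. The neurofilament genes Nefm and Nefl were at 76.2 and 63.5 CPM, against 0 counts in the other 5, and Prph and Snap25 were at 15.3 and 13 CPM, against at most 0.208 and 0.0697 CPM. The sum of the fibroblast markers was 411 CPM against 4.57 to 45.2 CPM, but only 4 of the 10 were above the other 5 libraries. Dcn was at most 0.62 CPM in T166A BMDM, against up to 10.7 CPM in WT. Fa2h and Gfra3 had 0 counts there. That library was labelled batch B2 like WT replicate 3, which held 0 counts of Sox10, S100b and Cdh19 and 1 of Ncam1. Without it the log2 fold changes in BMDM were 0.19 for Mbp, -0.21 for Pmp22 and 0.05 for Prx, and none was called (edgeR adjusted p = 0.632, 0.455 and 0.976).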

How the data were processed

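RNA sequencing was run on total RNA of 18 libraries. The deposited values are raw read counts per RefSeq transcript, made by the authors on the mm10 build. The submitters' processing notes name HISAT2 2.2.1, featureCounts with no version, cutadapt 4.4 and FastQC 0.12.1. Not given in the sources used here are the strand setting and the treatment of shared reads. One extraction protocol is given for all libraries and speaks of adipocytes.

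Of 45843 skin and 45895 BMDM transcripts all but 117 in each (0.187% and 0.514% of counts) were matched to genes through RefSeq (GRCm38.p6) or GENCODE. Each gene was represented by the row with the highest summed CPM, since isoform rows count shared reads repeatedly. Differences were tested on the counts in R 4.3.3 with edgeR 4.0.16 (TMM, filterByExpr with a minimum count of 10, robust quasi-likelihood F test, Benjamini-Hochberg threshold 0.05), skin by genotype and BMDM by batch and genotype. The test was checked on simulated counts. The biological coefficient of variation was 0.133 in skin and 0.279 in BMDM, and no libraries were duplicates. Same-numbered WT and T166A libraries correlated by -0.045 to 0.09 in skin, which gives no pairs. In BMDM they correlated by 0.2, 0.115 and 0.185, and the 3 WT libraries each correlated best with their own number. The labels give batches and no pairs, and the main BMDM test used batch. Pair relations used log2 CPM with a prior count of 2 and 100000 permutations within genotype.

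The 8 genes, the gene lists and the naming rule were chosen with earlier results of these data known. The rule named the 8 genes, a set of known Schwann cell and melanocyte genes, the most abundant and the 3 genes with the smallest adjusted p of each list, and the 3 genes most like each of the 8. Other list genes that passed the test, and the Mbp rows, were named after their values were seen. Alternatives were other scalings (RLE, library size), filters, tools (DESeq2 1.42.0, limma-voom 3.58.1), transcript choices, covariates, a replicate block and leaving out each library. The values of 2 genes of the myelin list, which are in its counts, are not reported here.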

Additional observations from a re-analysis of the deposited data

Results flagged for a closer look

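Ncam1 in the skin of WT replicate 2 stood at 9.62 CPM, far from the other 5 WT libraries relative to their range. It was the 1 flag among 16 groups of 6 libraries, and chance gives about 1 in 20.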

How the results depend on the processing

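Sox10 and Cdh19 kept their call under every alternative run except the adipocyte covariate, and Pmp22 kept it under all. Genes of the 8 called higher numbered 5, but 0 with the adipocyte score and 3 with the fibroblast score as a covariate, and 3 to 5 when each library was left out in turn. Mbp was not called with its longest transcript, the upstream row that ends early (log2 fold change 0.05, edgeR adjusted p = 0.718). Over all genes in skin 4011 were called, and 960 with the adipocyte score. Scaling by library size alone gave 3357 higher and 1308 lower, against 1963 and 2048, and moved the median over all genes to 0.10 from 0.01, with no change in the calls of the 8. With the replicate block 4549 genes were called in skin and 10 in BMDM, and no call of the 8 changed, though skin numbers do not pair the libraries (1 of 6 WT libraries correlated best with its own number). In BMDM the 9 calls became 105 with no filter, 15 with a stricter filter, 400 in DESeq2, 177 in limma-voom, 0 with summed transcripts and 0 with no batch term, and 0 to 18 when each library was left out. The difference between myelin and repair or precursor genes was -0.54 to -0.35 when each library was left out, with Pmp22 in the myelin mean throughout. With the adipocyte score Gap43 turned to -0.55 and Erbb3 to 1.04, and with the fibroblast score Col3a1 turned to 0.18 and Fabp4 to -0.18. Col3a1 is itself part of the fibroblast score, so its turn is no separate result. The cause of these turns was not tested. S100b, at 14 to 57 counts, gave no value under the stricter filter, and depth limits it, Cdh19 and Mal most.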
